A study of Mus musculus with 12 samples.

Results

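Aire, Fezf2 and the RANK, CD40 and lymphotoxin receptor pathway were followed through 4 populations of mouse thymic stroma. The set holds 10 genes of the 23306 gene symbols in the deposited table, taken by symbol as the receptors and non-canonical NF-kB genes tied to maturation of medullary epithelium together with the regulators Aire and Fezf2. The rule that names them uses no measured value, but the set was chosen with earlier results of these data known. All 10 were in the table and all 10 were among the 14792 genes that passed the low-count filter.

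The cells came from C57 BL6 mice that carry a tomato reporter of Kit ligand, and all 4 groups carry it. Every cell was Lin- and Dapi- and was isolated by flow sorting. Tomato+ VEC and tomato- VEC are vascular endothelial cells sorted as EpCAM- CD31+, with or without tomato signal. Tomato+ cTEC are cortical epithelial cells (EpCAM+ CD31- UEA1- Ly51+), and tomato- mTEC are medullary epithelial cells (EpCAM+ CD31- UEA1+ Ly51-). Each group had 3 libraries of poly(A) RNA made with an ultra-low input protocol. The labels give no age, sex or pooling, and nothing in them says that the libraries came from separate mice, so p-values measure the spread between these libraries, which may be technical. In the epithelium the reporter and the gate differ together, so the comparison of cTEC with mTEC cannot tell the 2 apart. In sorted bulk RNA, fewer cells of a type and less RNA per cell cannot be told apart either.

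Medullary epithelium displays proteins of many other tissues to developing T cells. Lymphocytes that carry RANK ligand, CD40 ligand or lymphotoxin engage the receptors RANK, CD40 and LTβR on epithelial precursors. TRAF proteins carry the signal from these receptors, and in the non-canonical branch the kinase NIK is freed from TRAF3, p100 is processed to p52, and RelB with p52 enters the nucleus. Aire and Fezf2 are nuclear regulators of the medullary antigen genes.

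Library totals were 8388869 to 11807130 reads. Levels are given as the deposited RPKM (reads scaled to library total and gene length), which can be compared between genes, or as CPM (reads scaled to library total, with TMM factors), which is compared only within a gene. A gene was called when its Benjamini-Hochberg adjusted p over the 14792 tested genes, from edgeR's quasi-likelihood test on the counts, was under 0.05. The pan-epithelial and endothelial markers separated the groups as labelled. Summed over 5 pan-epithelial markers, the VEC libraries had 0.523 to 1.23 CPM and the epithelial libraries 2200 to 3992 CPM. Summed over 5 endothelial markers, the VEC libraries had 6963 to 9496 CPM and the epithelial libraries 2.08 to 281 CPM, with cTEC library 2 the highest of these. The 6 medullary markers summed to 789 to 1370 CPM in cTEC and 4853 to 6406 CPM in mTEC, and the 6 cortical markers to 6435 to 7689 CPM in cTEC and 526 to 541 CPM in mTEC. Both of these lists also had reads in VEC, mostly from a chemokine each. The cortical list summed to 1431 to 2039 CPM in tomato+ VEC and 124 to 140 CPM in tomato- VEC, most of it Cxcl12, and the medullary list to 1.70 to 3.74 CPM in tomato+ VEC and 77.7 to 278 CPM in tomato- VEC, where nearly all of it was Ccl21a.

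Of the 10 genes, 4 were lower in cTEC than in mTEC by the test, and their start regions are shown to place them beside the values that follow. The windows are RefSeq sequences of GRCm38.p6, 250 bases before to 50 bases after an annotated start, 5′ to 3′ on the gene's strand. The expression table names another build, so no position of a read is implied. Windows were at hand for 8 of the 10 genes. Capitals mark TATAAA in Aire and matches to the kappa B consensus, the site bound by NF-kB dimers, in Fezf2 and Nfkb2. The Tnfrsf11a window held no match to either and has no capitals.
Aire chr10:78043561-78043860, minus strand: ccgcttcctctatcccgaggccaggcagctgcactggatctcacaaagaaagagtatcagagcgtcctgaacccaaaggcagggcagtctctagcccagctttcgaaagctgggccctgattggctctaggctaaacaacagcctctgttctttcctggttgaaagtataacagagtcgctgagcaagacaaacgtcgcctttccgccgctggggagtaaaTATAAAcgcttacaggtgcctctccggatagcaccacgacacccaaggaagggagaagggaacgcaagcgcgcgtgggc
Fezf2 chr14:12345816-12346115, minus strand: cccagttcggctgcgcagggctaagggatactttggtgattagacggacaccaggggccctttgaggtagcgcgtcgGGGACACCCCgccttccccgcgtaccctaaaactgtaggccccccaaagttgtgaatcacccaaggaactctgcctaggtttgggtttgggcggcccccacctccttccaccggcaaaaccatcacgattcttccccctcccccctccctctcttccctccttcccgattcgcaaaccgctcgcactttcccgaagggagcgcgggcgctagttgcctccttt
Tnfrsf11a chr1:105780473-105780772, plus strand: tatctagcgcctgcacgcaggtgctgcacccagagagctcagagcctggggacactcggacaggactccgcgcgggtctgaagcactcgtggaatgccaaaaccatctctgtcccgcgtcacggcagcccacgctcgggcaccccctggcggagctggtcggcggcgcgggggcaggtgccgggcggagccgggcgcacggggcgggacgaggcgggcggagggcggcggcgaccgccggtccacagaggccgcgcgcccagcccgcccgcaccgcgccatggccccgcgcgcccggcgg
Nfkb2 chr19:46304487-46304786, plus strand: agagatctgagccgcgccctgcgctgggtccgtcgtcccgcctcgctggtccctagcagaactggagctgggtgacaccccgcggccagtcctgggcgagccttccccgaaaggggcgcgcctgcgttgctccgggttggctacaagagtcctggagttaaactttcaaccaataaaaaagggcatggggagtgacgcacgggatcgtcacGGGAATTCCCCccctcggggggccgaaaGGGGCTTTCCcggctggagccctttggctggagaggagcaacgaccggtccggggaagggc

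Both strands were searched for the kappa B consensus, for TATAAA and for CCAAT. Among the genes with a window, 3 had a kappa B match: Nfkb2, Fezf2 and Traf3. The Nfkb2 window shown held 3 matches, which lie at -39 to -30, -38 to -29 (the first 2 overlap) and -11 to -2 counted from the start. The 2 other Nfkb2 windows held 2 and 1. Fezf2 had its match at -173 to -164 and Traf3 at -10 to -1. The Aire window held TATAAA at -29 to -24, CCAAT on the reverse strand at -131 to -127 and no kappa B match. Of 32851 RefSeq mouse windows of this length, 8.46% held the kappa B consensus, 13.6% TATAAA and 37.4% CCAAT. Counted by gene, 9.55% of 27025 genes had a kappa B match in at least 1 window. A match is a string of letters, and no binding was measured here.

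Among the receptors, RANK and CD40 were highest in mTEC while the lymphotoxin β receptor was lowest there. Tnfrsf11a encodes RANK, the receptor for RANK ligand. It had 14.8, 8.37 and 1.42 RPKM in tomato+ VEC, 11.5, 13.9 and 14.5 RPKM in tomato- VEC, 1.61, 1.07 and 1.77 RPKM in cTEC, and 29.8, 40.4 and 38.2 RPKM in mTEC. All mTEC libraries lay above every other library. The tomato- VEC libraries were close together, whereas the third tomato+ VEC library stood at the cTEC level, the second between cTEC and tomato- VEC, and the first just above the tomato- VEC. In cTEC the log2 fold change against mTEC was -4.68 (SE 0.68, edgeR adjusted p = 0.00207). Tnfrsf11a was also higher in tomato+ VEC than in cTEC, with a log2 fold change of 2.77 (SE 0.63, edgeR adjusted p = 0.00786), although the libraries of the 2 groups overlapped. Without tomato+ VEC library 1 that value was 2.06 (edgeR adjusted p = 0.0283), and the call was lost with limma voom (adjusted p = 0.139), with limma-trend on log2(RPKM + 1) (adjusted p = 0.0633) and when only the 6 libraries compared were fitted with edgeR (adjusted p = 0.0664).

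Cd40, the receptor for CD40 ligand, had the highest mean RPKM of the 10 genes in mTEC. It had 10.4, 2.32 and 0 RPKM in tomato+ VEC, 7.29, 13.3 and 5.18 RPKM in tomato- VEC, 4.02, 9.56 and 17.4 RPKM in cTEC, and 190, 179 and 132 RPKM in mTEC. The mTEC libraries lay far above all the others, and the other 3 groups overlapped one another. Against tomato- VEC the call was made: tomato- VEC stood below mTEC by a log2 fold change of -4.12 (SE 1.16, edgeR adjusted p = 0.0202). That call was lost without tomato- VEC library 1 or 3 or without mTEC library 1 (edgeR adjusted p = 0.0692, 0.0732 and 0.0502). In cTEC against mTEC the log2 fold change was -4.08 (SE 1.16), and the edgeR adjusted p of 0.0516 just missed the threshold. It passed when tomato+ VEC library 1 or 3, neither of which is in the comparison, was left out (edgeR adjusted p = 0.0259 and 0.00624). Of 9 other settings 7 passed, among them the 6 epithelial libraries alone (edgeR adjusted p = 0.00199) and limma voom (adjusted p = 0.00302). With relative log expression scaling the edgeR adjusted p was 0.0468. The 2 other settings did not pass, with an edgeR adjusted p up to 0.107. The tomato+ VEC group holds the library with 0 Cd40 reads, and all 12 libraries share the estimate of the spread.

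Ltbr, the receptor for lymphotoxin and LIGHT, ran the other way. It had 21.8, 21.0 and 24.8 RPKM in tomato+ VEC, 23.3, 22.5 and 38.0 RPKM in tomato- VEC, 28.6, 17.3 and 14.9 RPKM in cTEC, and 3.76, 4.22 and 12.4 RPKM in mTEC. No mTEC library reached the lowest library of any other group. Ltbr was higher in tomato- VEC than in mTEC by a log2 fold change of 2.19 (SE 0.52, edgeR adjusted p = 0.00872), and by 2.99 without mTEC library 3 (edgeR adjusted p = 0.00225). In cTEC against mTEC the value was 1.50 (SE 0.51, edgeR adjusted p = 0.101), which became 2.29 without mTEC library 3 (edgeR adjusted p = 0.0277).

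**Figure D1:**
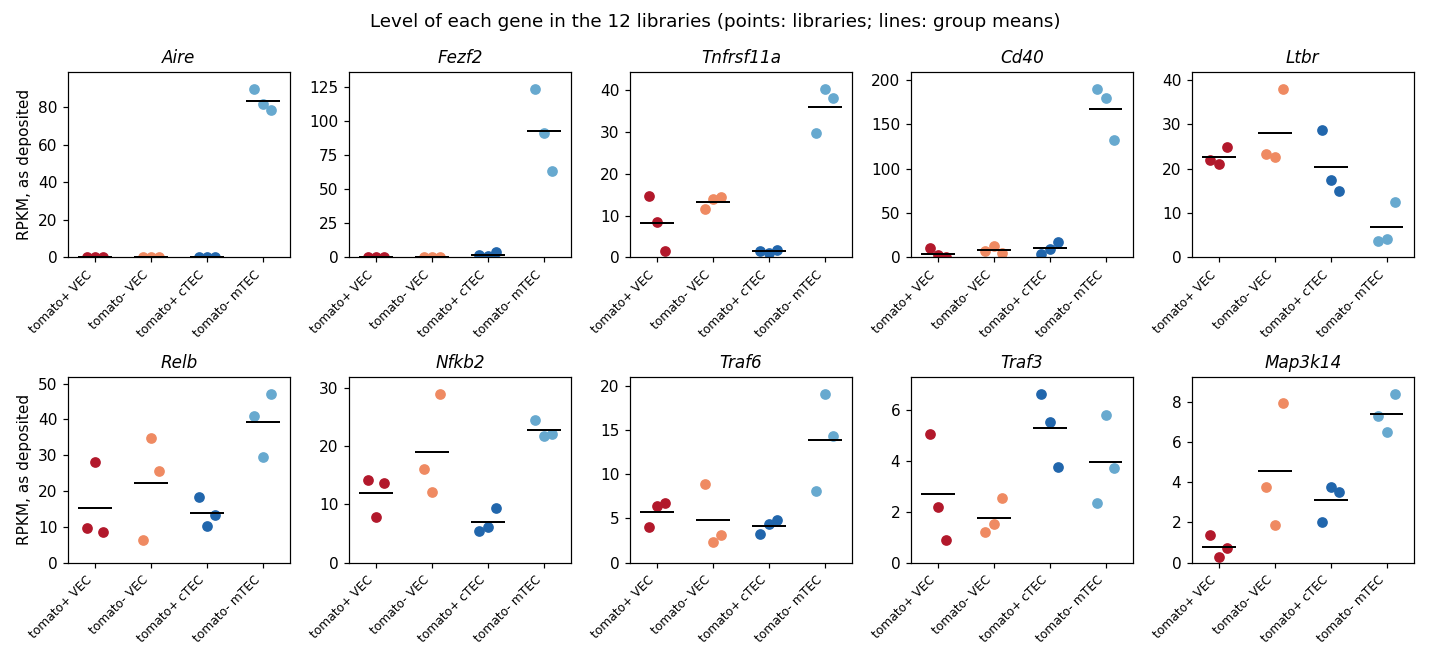
Deposited RPKM of each of the 10 genes (vertical axes, each panel with its own scale from 0) in both VEC groups, cTEC and mTEC. Points are the 3 libraries of a group, in replicate order from left to right, and lines are group means: Aire and Fezf2 are near 0 outside mTEC, while Ltbr is lowest in mTEC and Traf3 is similar in cTEC and mTEC.

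Neither the adaptors nor the kinase passed the test in cTEC against mTEC. Traf6, the ubiquitin ligase that couples RANK and CD40 to the canonical pathway, had 3.98, 6.47 and 6.73 RPKM in tomato+ VEC, 8.91, 2.29 and 3.11 RPKM in tomato- VEC, 3.24, 4.33 and 4.81 RPKM in cTEC, and 8.12, 19.1 and 14.4 RPKM in mTEC. Its cTEC libraries all lay below the mTEC libraries, with a log2 fold change of -1.83 (SE 0.57) that did not pass (edgeR adjusted p = 0.0752). Without tomato- VEC library 1, the library in which Traf6 was high among VEC, the edgeR adjusted p of the epithelial comparison was 0.0406, and tomato- VEC against mTEC passed with a log2 fold change of -2.19 (edgeR adjusted p = 0.0165).

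Traf3, which holds NIK at low levels in resting cells, was the gene for which cTEC and mTEC overlapped. It had 5.05, 2.19 and 0.894 RPKM in tomato+ VEC, 1.20, 1.51 and 2.54 RPKM in tomato- VEC, 6.63, 5.53 and 3.76 RPKM in cTEC, and 2.33, 5.81 and 3.70 RPKM in mTEC. The log2 fold change of cTEC against mTEC was 0.34 (SE 0.66, edgeR adjusted p = 0.873), and no comparison called the gene. The tomato+ VEC libraries spread widely, with library 1 in the cTEC range and library 3 below every other library.

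Map3k14 encodes NIK, the kinase that starts p100 processing. It had 1.36, 0.255 and 0.724 RPKM in tomato+ VEC, 3.78, 1.88 and 7.93 RPKM in tomato- VEC, 2.04, 3.74 and 3.53 RPKM in cTEC, and 7.30, 6.48 and 8.38 RPKM in mTEC. Every tomato+ VEC library lay below every library of the other 3 groups. The highest tomato- VEC library fell within the mTEC range.

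The NF-kB subunits had their highest means in mTEC, with a wide spread elsewhere. Nfkb2, which encodes p100 and its product p52, had 14.2, 7.79 and 13.6 RPKM in tomato+ VEC, 16.0, 12.1 and 28.9 RPKM in tomato- VEC, 5.47, 6.17 and 9.43 RPKM in cTEC, and 24.4, 21.8 and 22.1 RPKM in mTEC. The mTEC libraries were the tightest of any of the 10 genes in that group, with a coefficient of variation of 4.50% in CPM. Nfkb2 was lower in cTEC than in mTEC by a log2 fold change of -1.76 (SE 0.42, edgeR adjusted p = 0.0269). The fold hardly moved when libraries were left out, but the call was lost without cTEC library 1 or 2 or any single mTEC library (edgeR adjusted p = 0.114, 0.106, 0.0879, 0.0768 and 0.0694). Nfkb2 was higher in tomato- VEC than in cTEC, by 1.65 (SE 0.42, edgeR adjusted p = 0.0159), a comparison in which 19.2% of all tested genes were called.

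Relb, the partner of p52, had 9.69, 28.0 and 8.42 RPKM in tomato+ VEC, 6.28, 34.7 and 25.5 RPKM in tomato- VEC, 18.4, 10.1 and 13.2 RPKM in cTEC, and 41.0, 29.5 and 47.1 RPKM in mTEC. The cTEC libraries were all below the mTEC libraries, while both VEC groups ranged from below cTEC to near or within the mTEC range. The log2 fold change of cTEC against mTEC was -1.57 (SE 0.62, edgeR adjusted p = 0.164). With the 6 epithelial libraries alone the edgeR adjusted p was 0.011.

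The regulators were near 0 outside mTEC. Aire, the autoimmune regulator, had 0, 0 and 0 reads in tomato+ VEC, which allows up to 0.113 CPM over the group at 3 counts, and this floor covers counting error only. The other groups had 1 read in tomato- VEC, 3 reads in cTEC, all in library 3, and 5001 reads in mTEC. In mTEC these were 89.7, 81.5 and 78.2 RPKM, or 159 ± 9.52 CPM (SD, n = 3). The mTEC level was 1724-fold that of cTEC, with a 95% counting interval of 589 to 8361, and the call held in every fit with a library left out (edgeR adjusted p = 0.000562 with all libraries). Against tomato- VEC the ratio was 4323, with a 95% counting interval of 776 to 170790 (edgeR adjusted p = 7.28e-05), and against tomato+ VEC mTEC was at least 1403-fold higher. In the GRCm38.p6 annotation Aire overlaps Dnmt3l, and whether the counting used strand is not given in the sources used here. Dnmt3l had 0, 0 and 2.39 RPKM in cTEC and 17.4, 17.7 and 5.13 RPKM in mTEC.

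Fezf2, a zinc finger regulator, had 1.65, 0.664 and 3.85 RPKM in cTEC and 124, 91.2 and 63.6 RPKM in mTEC. In tomato+ VEC it had 0.104, 0.653 and 0.214 CPM and in tomato- VEC 0.445, 0.106 and 0 CPM, where 1 read is about 0.1 CPM. Unlike Aire, Fezf2 thus had reads in every cTEC library. It was lower in cTEC than in mTEC by a log2 fold change of -5.55 (SE 0.85, edgeR adjusted p = 0.00266), or by -6.36 without cTEC library 3 (edgeR adjusted p = 0.00455). It was lower in tomato+ VEC than in cTEC by -3.74 (SE 0.88, edgeR adjusted p = 0.00973), a value that was -4.60 without tomato+ VEC library 2 and -2.87 without cTEC library 3. That call was lost with limma voom (adjusted p = 0.0697) and with the 6 libraries compared alone (edgeR adjusted p = 0.061). Tomato- VEC were below mTEC by -10.0 (SE 1.08, edgeR adjusted p = 4.6e-05), or by -11.5 without tomato- VEC library 1, the library with most of that group's reads.

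Within mTEC the 10 genes spanned a wide range of abundance per length. The mean RPKM was 167 for Cd40, 92.8 for Fezf2, 83.1 for Aire, 39.2 for Relb, 36.2 for Tnfrsf11a, 22.7 for Nfkb2, 13.9 for Traf6, 7.39 for Map3k14, 6.79 for Ltbr and 3.95 for Traf3. Ranked over all 23306 symbols in mTEC, Cd40 was 585th, Fezf2 1081st, Aire 1198th and Traf3 9198th. Aire, Nfkb2 and Map3k14 varied least between the mTEC libraries, with coefficients of variation in CPM of 5.99%, 4.50% and 11.9%. Fezf2 (31.2%), Traf6 (41.8%), Traf3 (46.6%) and Ltbr (71.1%) varied most.

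Set over the whole comparison of cTEC with mTEC, 4 of the 10 genes were called lower (Aire, Fezf2, Tnfrsf11a and Nfkb2) and 0 higher. Of all tested genes, 5.1% were called lower and 2.73% higher, 7.83% in all. Libraries did not overlap for 9 genes, with cTEC below in 8 and above in 1 (Ltbr), where 20.3% of all tested genes had cTEC below and 18.8% above. The median log2 fold change was -1.80 over the 10 genes and 0.02 over all tested genes. Markers of other cell types moved with this comparison. The 6 dendritic and myeloid markers, whose cells also carry CD40 and RANK, summed to 3.48, 5.19 and 151 CPM in cTEC and to 399, 335 and 372 CPM in mTEC, nearly all of it Lyz2. In mTEC the means of the other 5 were 11.9 CPM for Csf1r, 3.34 CPM for Ptprc, 1.37 CPM for Flt3, 0.60 CPM for Emr1 and 0.53 CPM for Itgax. Cd79b, a subunit of the B cell receptor, had 0, 0 and 2.51 CPM in cTEC and 32.7, 35.1 and 7.18 CPM in mTEC. The 5 fibroblast and mural markers summed to 2084, 1993 and 1586 CPM in cTEC and to 252, 140 and 401 CPM in mTEC, most of it Dcn. The 7 thymocyte markers summed to 99.6, 44.1 and 73.9 CPM in cTEC and to 9.49, 24.1 and 36.8 CPM in mTEC. Cortical library 3, the highest of the 3 in myeloid markers, was also the highest for Aire, Fezf2, Cd40, Tnfrsf11a, Nfkb2 and Traf6. It was the lowest for Ltbr and Traf3. The medullary markers were highest in cTEC library 1, with sums of 1370, 789 and 1095 CPM over the 3. The part of other cell types in the levels of the 10 genes was not tested.

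In tomato+ VEC against tomato- VEC edgeR called 0 of the 10 genes, where 1.65% of all tested genes were called. At an unadjusted p under 0.05 there was 1, Map3k14. DESeq2 called 1, again Map3k14, where it called 1253 of all 14792 tested genes. Limma voom called 0, where it called 601 of all tested genes. Map3k14 had 6.34, 1.18 and 3.32 CPM in tomato+ VEC and 17.2, 8.39 and 33.7 CPM in tomato- VEC. Its log2 fold change was -2.45 (SE 0.76, edgeR adjusted p = 0.138, DESeq2 adjusted p = 0.00795). It was the sole member whose VEC libraries did not overlap, while 8.32% of all tested genes had tomato+ VEC below without overlap. The other 8 genes with a fold had values of -0.94 (Cd40) to 0.72 (Fezf2), and Aire had too few reads for one. Single libraries moved several of these: Cd40 was -2.83 without tomato+ VEC library 1 and -0.29 without library 3, and Tnfrsf11a -1.35 and -0.069 without the same libraries. The median was -0.53 over the 10 genes and 0 over all tested genes. The former takes in the fitted value of Aire, which rests on 0 reads in tomato+ VEC and 1 in tomato- VEC.

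Between the 2 tomato+ populations, 2 of the 10 genes passed in tomato+ VEC against cTEC, Tnfrsf11a higher and Fezf2 lower, and 21.9% of all tested genes did. Between the tomato- populations 4 of the 10 passed in tomato- VEC against mTEC, with Aire, Fezf2 and Cd40 lower and Ltbr higher, and 27.5% of all tested genes did. Both shares come from comparisons in which a large part of all genes was called. Tnfrsf11a was below mTEC in all 3 tomato- VEC libraries, with a log2 fold change of -1.29 (SE 0.59) that did not pass (edgeR adjusted p = 0.134). Leaving out tomato+ VEC library 3, which is not in the comparison, brought it past the threshold (edgeR adjusted p = 0.015), and with the 6 libraries compared alone (edgeR adjusted p = 0.00432). In tomato+ VEC, Tnfrsf11a was lower than in mTEC by -1.91 (SE 0.60, edgeR adjusted p = 0.0301), and Map3k14 by -3.01 (SE 0.78, edgeR adjusted p = 0.0123), with 31.8% of all tested genes called there.

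**Figure D2:**
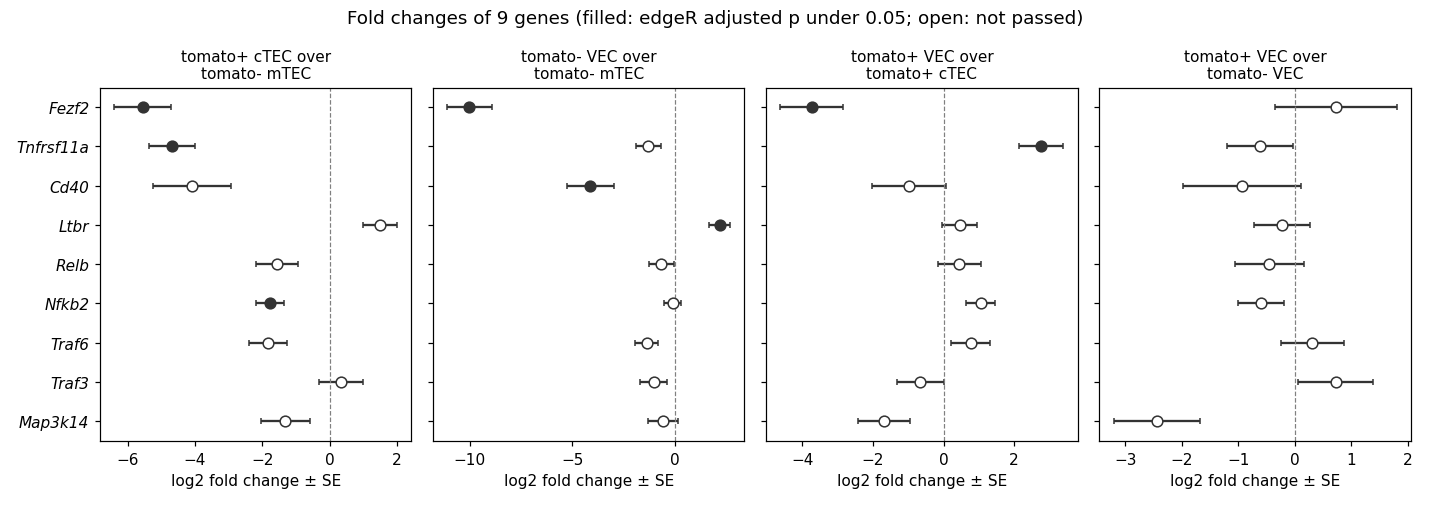
Log2 fold change (edgeR) ± SE (derived from the test statistic) of 9 genes in 4 comparisons, each named as numerator over denominator. The horizontal axes have their own ranges. Filled points passed an edgeR adjusted p of 0.05. Aire is left out because a group with 0 to 3 reads gives no stable fold. Fezf2 is the leftmost point in the first 3 panels, and in the fourth, tomato+ VEC over tomato- VEC, all points are open.

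The order of the levels over the 4 groups was in most cases not resolved between neighbours. Of 30 neighbouring pairs, 3 for each gene, 4 were called by edgeR: mTEC above cTEC for Aire and Fezf2, cTEC above tomato+ VEC for Fezf2, and tomato+ VEC above cTEC for Tnfrsf11a. By construction neighbouring pairs leave out the widest gap of each gene, that between its highest and lowest mean. The share of such pairs called over all tested genes was not computed, so the count is only a description. The highest mean was in mTEC for 8 of the genes. For Ltbr the means ran from 13.4 CPM in mTEC through 38.2 CPM in cTEC and 52.2 CPM in tomato+ VEC to 61.5 CPM in tomato- VEC. For Traf3 they ran from 12.8 CPM in tomato- VEC through 21.1 CPM in tomato+ VEC and 26.2 CPM in mTEC to 33.3 CPM in cTEC. Neither order had a neighbouring pair that passed.

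The difference between the reporter contrast in VEC and the contrast of cTEC with mTEC was tested directly. It was called for Fezf2, with a difference of log2 fold changes of 6.27 (SE 1.35, edgeR adjusted p = 0.0300), and for Tnfrsf11a, with 4.06 (SE 0.86, edgeR adjusted p = 0.0282). Of all tested genes, 3.08% were called. For Fezf2 both VEC groups held fewer than 10 reads (8 and 5), so the VEC side of this difference rests on few counts. The Fezf2 call was lost without tomato+ VEC library 2, tomato- VEC library 2, cTEC library 1 or any single mTEC library (edgeR adjusted p of 0.121, 0.0644, 0.0702, 0.08, 0.0662 and 0.0514). The Tnfrsf11a call was lost without any single one of the 9 tomato- VEC, cTEC and mTEC libraries (edgeR adjusted p up to 0.0708).

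Genes with a profile like those of the members were sought among the tested genes, leaving out unnamed gene models. The measure was the root mean square difference of log2(CPM + 1) centred per gene over the 12 libraries. The nearest to Aire were Cdx1 (0.358), Rgs13 (0.399), Pglyrp2 (0.447), Crhbp (0.455) and Skint1 (0.457). Like Aire they were low outside mTEC, with group means of at most 1.11 CPM there, and had mTEC means of 90.9 CPM (Pglyrp2) to 214 CPM (Skint1). The nearest to Fezf2 were Ccl19 (0.416), Dio1 (0.540), Ncf4 (0.565), Skint1 (0.576) and Spock3 (0.595). Ccl19, a chemokine for T cells and one of the medullary markers, averaged 0.349 CPM in tomato+ VEC, 0.328 CPM in tomato- VEC, 5.02 CPM in cTEC and 244 CPM in mTEC. Tnfrsf11a had no neighbour as close among the genes searched. Its nearest were Ubd (0.768), Acot7 (0.782), Prr15 (0.787), Naip2 (0.800) and Gnb4 (0.840). Ubd, a ubiquitin-like modifier, averaged 1024 CPM in tomato+ VEC, 3321 CPM in tomato- VEC, 419 CPM in cTEC and 4252 CPM in mTEC, and Gnb4, a G protein subunit, 98.8, 138, 17.9 and 206 CPM in the same groups. These are descriptions over libraries that share 4 groups.

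Of the ligands and decoys of the pathway, 3 of 6 had enough reads to test and 0 were called in cTEC against mTEC. Ltb, a lymphotoxin subunit and one of the 3, had 0 reads in cTEC and 8.05, 7.16 and 3.59 CPM in mTEC. Tnfrsf11b encodes osteoprotegerin, the soluble decoy of RANK ligand. It had 0, 8.36 and 0.107 CPM in tomato+ VEC, 0, 5.20 and 0.112 CPM in tomato- VEC, 12.4, 23.8 and 2.34 CPM in cTEC, and 153, 298 and 168 CPM in mTEC. It was lower in tomato- VEC than in mTEC by -6.85 (SE 1.92, edgeR adjusted p = 0.0197). That call was lost without tomato- VEC library 1 or 3 or mTEC library 2 (edgeR adjusted p = 0.0549, 0.0623 and 0.0544), and the value was -11.6 without tomato- VEC library 2. Tnfsf11, RANK ligand itself, had 22 reads, all in cTEC library 2, and Cd40lg had 1 read in the 12 libraries.

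In cTEC against mTEC, 7.83% of all tested genes were called, 5.1% lower and 2.73% higher. Of the other TRAF and IAP adaptors, 2 of 5 were lower in cTEC than in mTEC and 0 higher, with a median of -1.81. Both are the cIAP ubiquitin ligases that act with TRAF2 and TRAF3 on NIK. Birc2 (cIAP1) had 124, 102 and 175 CPM in cTEC and 496, 503 and 401 CPM in mTEC, a log2 fold change of -1.81 (SE 0.28, edgeR adjusted p = 0.00318). Birc3 (cIAP2) had 26.2, 37.3 and 63.7 CPM in cTEC and 220, 270 and 235 CPM in mTEC, a log2 fold change of -2.52 (SE 0.41, edgeR adjusted p = 0.00393). No left-out library ended either call. Both were near the mTEC level in tomato- VEC, where Birc2 had 473, 411 and 403 CPM and Birc3 315, 201 and 134 CPM. Birc3 was higher in tomato+ VEC than in cTEC by 1.46 (SE 0.40, edgeR adjusted p = 0.0196), a call lost without tomato+ VEC library 3 or cTEC library 1 or 2 (edgeR adjusted p = 0.0544, 0.0598 and 0.0543).

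The next 2 lists are set beside the same shares over all tested genes, 5.1% lower and 2.73% higher in cTEC than in mTEC. Of the 11 IKK, TAK1 and ubiquitin regulators, 1 was lower in cTEC than in mTEC and 0 higher, with a median of 0.08. It was Tnip1, a ubiquitin-binding partner of A20, which had 36.2, 31.2 and 40.9 CPM in cTEC and 133, 194 and 141 CPM in mTEC (log2 fold change -2.12, SE 0.48, edgeR adjusted p = 0.0212). Of the 7 other NF-kB and IkB proteins, 1 was lower and 0 higher, with a median of -0.82. It was Nfkbie, an inhibitor of NF-kB, which had 23.2, 20.1 and 24.8 CPM in cTEC and 113, 84.1 and 106 CPM in mTEC (log2 fold change -2.16, SE 0.45, edgeR adjusted p = 0.0151). The Tnip1 call was lost without any single cTEC library or mTEC library 1 or 2, and the Nfkbie call without cTEC library 1 or 2 or mTEC library 1, with edgeR adjusted p up to 0.0766 and 0.0612. Nfkb1, which encodes p105 and p50, was lower in tomato+ VEC (97.6, 123 and 39.9 CPM) than in cTEC (326, 280 and 240 CPM), by -1.70 (SE 0.42, edgeR adjusted p = 0.0118). Nfkbia, the inhibitor IkBα, was higher in tomato+ VEC than in cTEC by 1.38 (SE 0.32, edgeR adjusted p = 0.00904). Rela was higher in tomato- VEC than in mTEC by 1.27 (SE 0.38, edgeR adjusted p = 0.0249), and without tomato- VEC library 1 or 2 or mTEC library 1 or 2 the call was lost, with an edgeR adjusted p of at most 0.0969.

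**Figure D3:**
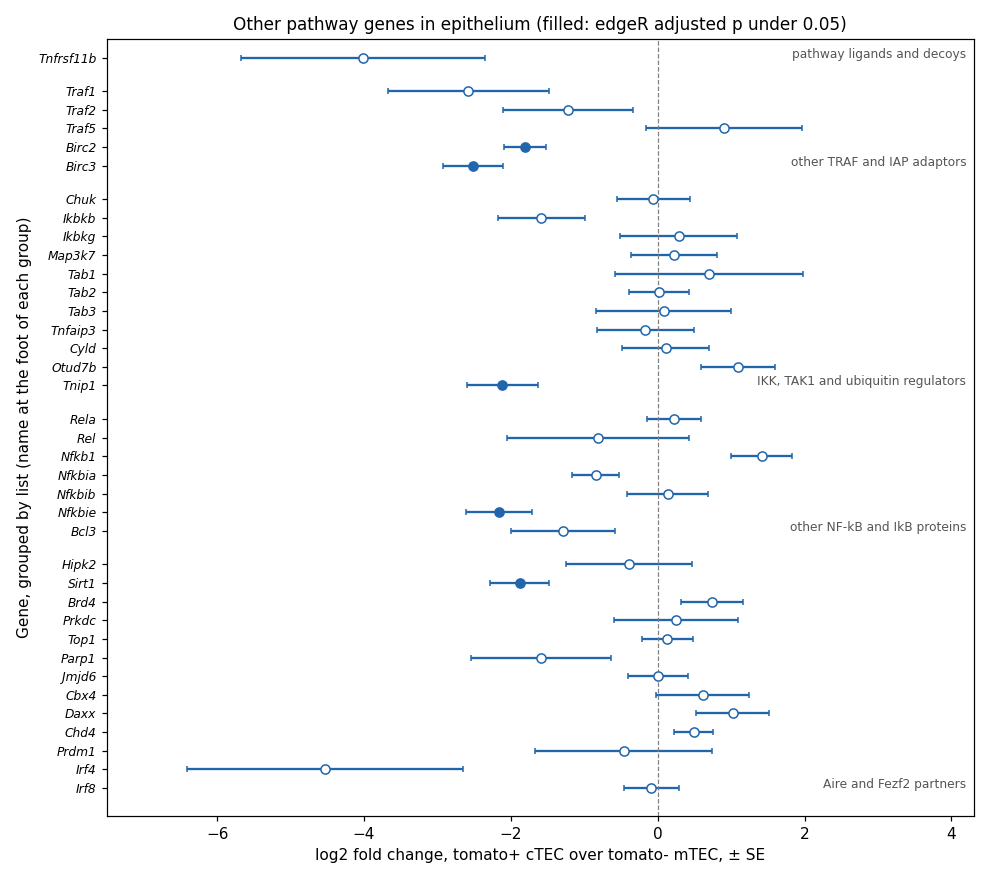
Log2 fold change (edgeR) ± SE (derived from the test statistic) of tomato+ cTEC over tomato- mTEC for the tested genes of 5 other lists of the pathway. Genes are grouped by list with the list's name at the foot of each group. Filled points passed an edgeR adjusted p of 0.05: Birc2, Birc3, Tnip1, Nfkbie and Sirt1, all to the left of 0. Lta and Ltb are left out because cTEC had 0 reads of them.

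The 13 genes listed as partners of Aire and Fezf2 include the transcription factors Irf4, Irf8 and Prdm1, and no interaction was measured here. Over all tested genes, 5.1% were called lower and 2.73% higher in cTEC than in mTEC. Of the 13, 1 was lower and 0 higher, with a median of -0.00251. It was Sirt1, a deacetylase that acts on Aire, with 50.5, 26.4 and 41.3 CPM in cTEC and 136, 167 and 132 CPM in mTEC (log2 fold change -1.88, SE 0.40, edgeR adjusted p = 0.0165). The call was lost without cTEC library 2 or 3 or mTEC library 1 or 2 (edgeR adjusted p = 0.0715, 0.0565, 0.0553 and 0.0676). Between the VEC groups, where 1.65% of all tested genes were called, 1 gene of the 7 pathway lists passed, the interferon regulatory factor Irf8. It had 6.34, 4.84 and 8.46 CPM in tomato+ VEC and 41.7, 33.7 and 57.9 CPM in tomato- VEC (log2 fold change -2.76, SE 0.40, edgeR adjusted p = 0.00544), but with the 6 VEC libraries alone the edgeR adjusted p was 0.132.

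The same lists were read in the comparisons between endothelium and epithelium. In tomato+ VEC against cTEC, 0 of 3 ligands and decoys, 1 of 5 adaptors, 1 of 11 IKK, TAK1 and ubiquitin regulators, 3 of 7 NF-kB and IkB proteins and 2 of 13 partners passed, where 21.9% of all tested genes did. The genes from the partner list were Irf8, lower by -3.31 (SE 0.41, edgeR adjusted p = 0.00014), and Prdm1, which encodes the repressor Blimp1, higher by 4.73 (SE 1.38, edgeR adjusted p = 0.0283). Without cTEC library 2 the Prdm1 value was 6.99, and the call was lost without tomato+ VEC library 1 or 3 or cTEC library 1 or 3 (edgeR adjusted p up to 0.097). The IKK-related gene was Tab1, a subunit of the TAK1 complex, lower by -4.60 (SE 1.49, edgeR adjusted p = 0.0448), which was lost in 9 of the 12 fits with a library left out. The third NF-kB protein, beside Nfkb1 and Nfkbia, was Bcl3, named here after its value was seen, which was higher by 2.52 (SE 0.74, edgeR adjusted p = 0.0284) and by 1.37 without tomato+ VEC library 1 (edgeR adjusted p = 0.148). It also did not pass without any single cTEC library (edgeR adjusted p = 0.0505, 0.0896 and 0.093).

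In tomato- VEC against mTEC, 1 of 3 ligands and decoys, 0 of 5 adaptors, 0 of 11 IKK, TAK1 and ubiquitin regulators, 1 of 7 NF-kB and IkB proteins and 4 of 13 partners passed, where 27.5% of all tested genes did. Sirt1 was lower by -2.22 (SE 0.41, edgeR adjusted p = 0.002). Jmjd6, a hydroxylase, was the partner with the smallest p of the 3 that were higher, with 1.62 (SE 0.42, edgeR adjusted p = 0.0135). Without tomato- VEC library 1 or mTEC library 1 Jmjd6 did not pass (edgeR adjusted p = 0.0522 and 0.0506). The difference between the VEC contrast and the epithelial contrast was called for Irf8, with -2.67 (SE 0.54, edgeR adjusted p = 0.0236), and for Sirt1, with 2.70 (SE 0.56, edgeR adjusted p = 0.0261). Each of these was lost in 6 of the 12 fits with a library left out, with edgeR adjusted p up to 0.0822 and 0.0758.

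Antigen genes used as readouts of Aire or Fezf2 seldom had enough reads to test. Over all tested genes, 5.1% were called lower in cTEC than in mTEC, and 27.5% were called in tomato- VEC against mTEC. Of 6 Aire readouts measured, 2 could be tested and 1 was lower in cTEC: Csn2, a milk casein, with 0, 0 and 3.37 CPM in cTEC and 611, 593 and 718 CPM in mTEC (log2 fold change -9.12, SE 1.23, edgeR adjusted p = 0.00123). All cTEC reads of Csn2 were in library 3, the library that also held the Aire reads. Of 6 Fezf2 readouts 3 could be tested and 2 were lower in cTEC. Fabp9, a fatty acid binding protein, had 0, 0.196 and 0.432 CPM in cTEC and 37.9, 10.4 and 52.4 CPM in mTEC (edgeR adjusted p = 0.0249). Calb1, the calcium-binding calbindin, had 0 reads in cTEC, a floor of 0.0917 CPM over the group, and 12.8, 46.0 and 3.83 CPM in mTEC (edgeR adjusted p = 0.0165). The Fabp9 call was lost without any single cTEC library or mTEC library 1 or 3, and the Calb1 call without cTEC library 1 or mTEC library 2, with edgeR adjusted p up to 0.0958 and 0.0609. In tomato- VEC against mTEC Csn2 was lower, at 2 reads against 20512, and so were all 3 tested Fezf2 readouts, among them Calb1 and Resp18 with 0 reads in tomato- VEC (edgeR adjusted p = 0.00535 and 0.0106). The third, Fabp9, was lower by -4.57 (SE 1.48, edgeR adjusted p = 0.0378), a call lost in 6 of the 12 fits with a library left out (edgeR adjusted p up to 0.112). Resp18, a neuroendocrine secretory protein, had 0.275, 0 and 21.2 CPM in cTEC and 101, 21.7 and 54.2 CPM in mTEC, where the highest cTEC library stood just below the lowest mTEC library. The Aire readouts Fabp2 and Obp1a had reads in mTEC and 0 in the other groups, Fabp2 with 0, 15.7 and 22.4 CPM and Obp1a with 0, 0 and 7.26 CPM. The Fezf2 readout Apob ran the other way, with 13 reads in cTEC, 17 in tomato+ VEC, 10 in tomato- VEC and 2 in mTEC. Rbp3, an Aire readout, had 3 reads, all in tomato+ VEC. The other tested Aire readout was not called in cTEC against mTEC (log2 fold change -0.71) or in tomato- VEC against mTEC (1.08).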

How the data were processed

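Poly(A) RNA of 12 sorted samples was turned into cDNA with a SMARTer kit for very small inputs, per the labels' protocols. TopHat2 2.0.10 and the build mm9 are named per the submitters' processing notes, while for the read counter, annotation, strand setting and filters nothing is stated in the sources used here. The table holds raw read counts per gene symbol, per the file headers. It also holds deposited RPKM values, which matched each count scaled by its library total and by 1 length per gene for all 180417 values tested, within a relative tolerance of 1e-06.

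The test was that of edgeR 4.0.16 (R 4.3.3), with filterByExpr (minimum count 10), TMM scaling, and a quasi-likelihood fit of all 12 libraries with a term per group (8 residual degrees of freedom, common dispersion 0.624). P-values were Benjamini-Hochberg adjusted over 14792 genes, with a threshold of 0.05 and no fold threshold. This test returns no SE. Each SE printed is the size of the log2 fold change divided by the square root of the test's F statistic. CPM are TMM-scaled. No fold is given where both groups had 3 reads or fewer. Ratios against 1 to 3 reads carry a 95% exact counting interval, and bounds use 3 counts over the group, and both cover counting error only. The scripts were tested on simulated counts. Libraries of a group differed by far more than sampling noise. No symbol outside the 10 genes had the same counts as one of them, and 4 of the 10 overlap another gene in the GRCm38.p6 annotation (Aire, Nfkb2, Traf3 and Map3k14), so reads there could be shared.

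The 10 genes, the 7 lists of other pathway genes and the marker lists were chosen with earlier results of these data known. Named were the 10 genes, and from each list up to 4 called genes with the smallest p in cTEC against mTEC and up to 2 in other comparisons. Also named were the 5 genes with the nearest profile to Aire, Fezf2 and Tnfrsf11a, with unnamed gene models left out of that search. Alternatives were DESeq2 1.42.0, limma 3.58.1 (voom, and limma-trend on log2(RPKM + 1) and log2(RPKM + 0.1)), a filter of at least 5 CPM in 3 libraries or none, relative log expression scaling, robust dispersions, the replicate number as a block, only the libraries compared, and leaving out each library. Proteins and the start regions of Cd40 and Relb were not analysed here. The sum of 1 marker list is not reported here.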

Additional observations from a re-analysis of the deposited data

Results flagged for a closer look

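The contrast of tomato+ with tomato- VEC and the contrast of cTEC with mTEC differed for 2 of the 10 genes by a direct test of the difference. For Fezf2 the difference of log2 fold changes was 6.27 (SE 1.35, edgeR adjusted p = 0.0300), made of 0.72 in VEC, where the groups had 8 and 5 reads, and -5.55 in epithelium. For Tnfrsf11a it was 4.06 (SE 0.86, edgeR adjusted p = 0.0282), made of -0.62 in VEC and -4.68 in epithelium. Of all tested genes, 3.08% were called. Tnfrsf11a had 83.3, 46.4 and 7.81 CPM in tomato+ VEC, and the difference was 3.36 without library 1 of that group (edgeR adjusted p = 0.0451) and 4.64 without library 3 (edgeR adjusted p = 0.00108). It did not pass in 9 of the 12 fits with a library left out, nor with limma voom (adjusted p = 0.0737) or limma-trend on log2(RPKM + 0.1) (adjusted p = 0.0519). The Fezf2 difference did not pass in 6 of the 12.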

How the results depend on the processing

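Of 1651 recomputed values, 1459 kept their direction and side of the threshold, 149 were no longer past it, 30 newly passed it and 13 changed sign. No value that changed sign had been called. With a library left out, the values for tomato+ VEC against tomato- VEC ranged over -0.14 to 2.29 for Fezf2, -0.32 to 0.037 for Ltbr, -1.18 to 0.078 for Relb and -0.088 to 1.19 for Traf3. For tomato- VEC against mTEC, Nfkb2 ranged over -0.47 to 0.11, with 0.03 without tomato- VEC library 1. For tomato+ VEC against cTEC, Relb ranged over -0.23 to 0.81, and was -0.019 and -0.030 with limma-trend on log2(RPKM + 1) and log2(RPKM + 0.1). The Traf3 difference between the contrasts ranged over -0.39 to 0.89, and was -0.082 and -0.11 with the same limma-trend settings. The causes were not tested.

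In cTEC against mTEC, 4 of the 10 genes were called, 7 with only the 6 libraries compared, and 3 to 5 with a library left out. With only those 6 libraries, 2487 of 14057 tested genes were called, against 1158 of 14792 with all libraries. For tomato+ VEC against tomato- VEC, DESeq2 called 1 of the 10, and 1253 of 14792 over all genes. Leaving out a library gave 0 to 0 of the 10. For tomato+ VEC against cTEC the 2 calls became 0 with limma voom, 1 with limma-trend on log2(RPKM + 1), 0 with only the 6 libraries compared, and 2 to 3 with a library left out. For tomato- VEC against mTEC the 4 calls were 3 to 5 with a library left out, and the 2 calls of the difference were 0 to 2. Neighbouring levels called were 4 to 6 of 30, with no share over all genes computed. Over all genes, leaving out a library gave 174 to 394 calls for tomato+ VEC against tomato- VEC, 428 to 1193 for cTEC against mTEC, 2375 to 3231 for tomato+ VEC against cTEC, 3014 to 4356 for tomato- VEC against mTEC and 159 to 491 for the difference.

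With the replicate number as a block, the difference between the contrasts called 0 of the 10 genes (edgeR adjusted p = 0.0653 for Fezf2 and 0.0676 for Tnfrsf11a). The block changed no other call of a member. Whether the numbers pair the libraries is not known. Over 18 pairs with the same number the correlation of deviations was small, at -0.0136 to 0.0768. Yet 8 of 12 libraries correlated best with a library of their own number.

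Over all genes the VEC comparison called 244, against 1253 with DESeq2, 601 with voom, 473 and 447 with limma-trend, and 112 with its 6 libraries alone. The epithelial comparison called 1158, against 1973, 2219, 2530, 2172 and 2487 under the same settings. The difference called 456, against 1418, 1309, 1766 and 1529, and 269 with the block. Relative log expression scaling moved the median log2 fold change of all genes in tomato- VEC against mTEC to -0.33, against -0.15 with TMM. DESeq2 gave no adjusted p for Cd40 there. Values of genes at a few reads, Aire and Fezf2 in VEC above all, rest on those few counts.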
